A study of Mus musculus with 24 samples.

Results

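The contractile and myofibroblast genes described here were 35 genes of the actomyosin machinery, given as a list of gene symbols drawn up with earlier results of these data known, with no threshold on a measured value. Of these, 34 were matched by symbol in the authors' deposited table for Dex in wild-type cells and 1, Actc1, in the GENCODE annotation. They were 35 of 45706 entries naming a gene in each library file, and all 35 were among the 15221 genes that passed the filter on low counts and were tested. By role they were 4 muscle actins, 12 thin filament binding proteins, 6 myosins and myosin regulators, 9 proteins of adhesions, crosslinks and the intermediate filament, and 4 genes grouped as SRF and matricellular or nuclear targets.

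RNA was sequenced from cultured mouse embryonic fibroblasts (MEFs), the spindle-shaped connective tissue cells of the embryo, in 24 libraries, 3 in each of 8 groups. All came from male C57BL/6 embryos of day 13.5 from which head and inner organs had been taken, and were cultured for 7 days before treatment. Mutant cells were GR Zn / Zn, carrying on both alleles a glucocorticoid receptor (GR) whose zinc finger, the fold that grips DNA, is altered, and wild-type cells were GR wt / wt. In each genotype 1 group received 1 uM dexamethasone (Dex, a synthetic glucocorticoid) in ethanol for 16 h with lipopolysaccharide (LPS, a bacterial cell wall component that activates innate immunity) at 100 ng/ul for 6 h, 1 received ethanol with LPS, 1 received Dex alone and 1 received ethanol vehicle alone. The question named by the series is whether responses to GR need its direct binding to DNA. The alteration of GR lies in its protein and was not checked from the counts. The labels do not say whether replicates came from separate embryos or culture dishes. The p-values therefore cover the spread among these libraries alone, which may be technical, and embryo and genotype cannot be told apart.

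Contractile cells pull on their surroundings by sliding myosin along actin filaments, and myosin light chain kinase switches this on by phosphorylating the regulatory light chain of myosin. A fibroblast that takes up smooth muscle actin and related proteins is called a myofibroblast, the cell that closes wounds and lays down scar matrix. Many of the genes involved are transcribed by serum response factor (SRF), which binds CArG boxes and is switched on by the cofactors myocardin and MRTF, while YAP and TAZ act through TEAD factors on genes such as Ctgf and Cyr61.

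Between 18.9 and 25.5 M reads were counted per library in 21 of the libraries. The remaining 3, replicate 1 of the mutant vehicle group, replicate 2 of the mutant LPS group and replicate 3 of the wild-type group with both agents, held 43.9 to 58.0 M. These 3 stood apart from their groups, as did replicate 2 of the mutant group and replicate 1 of the wild-type group with both agents. A chi-square of counts per degree of freedom was 8.70 to 61.1 in replicate pairs that held one of these 5 libraries and 1.56 to 5.05 in the other pairs, so no pair agreed within sampling noise. In the wild-type group with both agents every pair gave 20.6 to 61.1, so replicate 2 agreed closely with neither of the others. Levels are counts per 1e06 counted reads (CPM) after TMM scaling. Among the contractile genes the median coefficient of variation within a group was 9.67% in mutant with Dex and LPS, 6.07% in mutant with vehicle, 13.2% in wild type with Dex and LPS, and 1.97 to 3.65% in the other 5 groups.

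Promoter sequence was read for the contractile genes, since SRF, TEAD and GR are each known by a short DNA motif. RefSeq windows on GRCm38.p6, from 250 bases before to 50 bases after a gene's start, were matched for 29 of the 35 genes, with 32 windows in all. Windows were searched on both strands for the CArG box (CC, then 6 bases of A or T, then GG), for CATTCC, the core letters of TEAD sites, and for AGAACA, a core of GR sites. A CArG box lay in 7 of the 32 windows (those of Acta1, Actc1, Cnn2, Myl6, Myl9, Vcl and Srf), against 1.63% of all 32851 RefSeq promoter windows. CATTCC lay in 13 of the 32 windows, against 14.7% of all windows. AGAACA lay in 3 of the 32 windows (those of Acta2, Mylk and Flna), against 19.0% of all windows. A match describes these letters only, and a window without one says nothing of binding elsewhere.

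The windows below are those of the gene of SRF itself, of a pair of structural genes with a CArG box, and of 4 genes that rose with Dex in wild-type cells. Each is written from 5′ to 3′ along the gene's strand, with matches to any of the 3 motifs in capitals. The Srf window (chr17:46556113-46556412, minus strand) held 2 CArG boxes, and the Cnn2 window (chr10:79988350-79988649, plus strand) held 1. The Vcl window (chr14:20929148-20929447, plus strand) held a CArG box and a CATTCC match on the opposite strand.
Srf promoter: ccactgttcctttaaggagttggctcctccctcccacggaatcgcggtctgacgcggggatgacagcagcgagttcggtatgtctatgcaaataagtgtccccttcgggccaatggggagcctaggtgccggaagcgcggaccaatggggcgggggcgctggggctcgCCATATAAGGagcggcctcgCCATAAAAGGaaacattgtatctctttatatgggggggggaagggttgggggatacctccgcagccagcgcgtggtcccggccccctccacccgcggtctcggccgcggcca
Cnn2 promoter: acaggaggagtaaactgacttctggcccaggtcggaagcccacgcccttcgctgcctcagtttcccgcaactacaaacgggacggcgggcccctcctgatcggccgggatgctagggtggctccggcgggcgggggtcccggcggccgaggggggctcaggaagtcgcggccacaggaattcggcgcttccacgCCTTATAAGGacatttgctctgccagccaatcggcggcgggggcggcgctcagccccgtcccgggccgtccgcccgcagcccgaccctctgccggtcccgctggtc
Vcl promoter: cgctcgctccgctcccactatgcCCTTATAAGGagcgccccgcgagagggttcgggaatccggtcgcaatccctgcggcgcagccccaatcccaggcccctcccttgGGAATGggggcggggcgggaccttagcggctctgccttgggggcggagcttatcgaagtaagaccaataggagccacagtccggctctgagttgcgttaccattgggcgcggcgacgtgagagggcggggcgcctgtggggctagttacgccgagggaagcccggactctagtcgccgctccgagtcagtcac
Of the 4 genes that rose with Dex, Lmod1 (chr1:135324563-135324862, plus strand) and Cyr61 (chr3:145649936-145650235, minus strand) held a CATTCC match and neither other motif. The Mylk window (chr16:34784700-34784999, plus strand) lay at a start site inside the gene and held AGAACA and CATTCC, which share 2 letters there. The Itga5 window (chr15:103366742-103367041, minus strand) held none of the 3 motifs.
Lmod1 promoter: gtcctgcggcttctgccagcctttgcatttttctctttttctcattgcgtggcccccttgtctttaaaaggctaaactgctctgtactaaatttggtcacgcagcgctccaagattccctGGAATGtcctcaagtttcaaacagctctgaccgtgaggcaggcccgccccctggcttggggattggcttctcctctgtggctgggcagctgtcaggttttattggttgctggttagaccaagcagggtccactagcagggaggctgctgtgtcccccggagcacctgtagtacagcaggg
Cyr61 promoter: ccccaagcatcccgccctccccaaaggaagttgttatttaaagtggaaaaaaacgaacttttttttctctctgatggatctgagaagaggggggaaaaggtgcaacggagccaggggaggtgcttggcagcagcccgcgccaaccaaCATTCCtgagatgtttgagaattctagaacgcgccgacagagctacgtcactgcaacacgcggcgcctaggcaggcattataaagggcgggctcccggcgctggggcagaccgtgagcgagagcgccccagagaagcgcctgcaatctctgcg
Mylk promoter: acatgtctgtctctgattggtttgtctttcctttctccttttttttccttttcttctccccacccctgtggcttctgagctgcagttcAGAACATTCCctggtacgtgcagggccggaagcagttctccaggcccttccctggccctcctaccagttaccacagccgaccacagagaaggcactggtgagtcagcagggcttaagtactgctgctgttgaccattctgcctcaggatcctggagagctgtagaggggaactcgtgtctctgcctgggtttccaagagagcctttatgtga
Itga5 promoter: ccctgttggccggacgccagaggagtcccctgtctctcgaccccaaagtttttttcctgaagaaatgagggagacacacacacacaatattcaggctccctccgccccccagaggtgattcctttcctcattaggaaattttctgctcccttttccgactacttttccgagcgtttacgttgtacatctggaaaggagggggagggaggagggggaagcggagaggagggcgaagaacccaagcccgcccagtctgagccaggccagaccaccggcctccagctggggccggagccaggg

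The contractile genes together took 2.79 ± 0.104% of counted reads in mutant cells with vehicle and 3.15 ± 0.0367% in wild-type cells with vehicle (SD, n = 3 each). Per kilobase of exon, in wild-type cells with vehicle, the highest was Acta2, smooth muscle alpha actin, at 2030 CPM per kb, followed by Tagln, a calponin-family actin binder also called SM22 alpha, at 1150 CPM per kb. Tpm4 and Tpm1, tropomyosins that run along actin filaments, came next at 633 and 464 CPM per kb. Muscle genes spread widely on the same scale: Actg2, the smooth muscle gamma actin, had 246 CPM per kb, Cnn1, the thin filament protein calponin 1, 97.2 CPM per kb, Des, the muscle intermediate filament protein desmin, 15.2 CPM per kb, Myh11, smooth muscle myosin heavy chain, 4.46 CPM per kb, and Actc1, cardiac actin, 0.533 CPM per kb. The muscle actins have near-identical coding sequences and reads that fit more than 1 place in the genome were left out of the counts, so the levels of Acta1, Acta2, Actc1 and Actg2 are uncertain.

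Over the 8 groups, the mean level varied widely for Des, whose highest group mean was 6.34 times its lowest, Mylk at 3.7 times, Itga5 at 3.01 times, Ctgf at 2.85 times and Lmod1 at 2.84 times. The ratio of 6.39 for Actc1 rests on a lowest group mean from 3, 2 and 3 reads and is imprecise. Some of the genes followed each other closely. Pearson's r of log2 CPM over the 8 group means was 1.00 for Actg2 with Des and for Cnn1 with Myh11, and 0.99 for Cnn1 with Des. At the other end it was -0.90 for Tagln2 with Mylk and -0.94 for Tpm4 with Synpo. These are descriptions over n = 8 group means that share libraries and depth. Across the 11 comparisons, 29 of the 35 genes passed the test in at least 1, and Cnn2, Tpm2, Flna, Cald1, Synpo2 and Srf in none. The share of all genes that passed in at least 1 was not counted. A single comparison, LPS in mutant cells, called 36.7% of all genes. The heat map of log2 fold changes shows each gene in 7 of the comparisons.

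**Figure D1:**
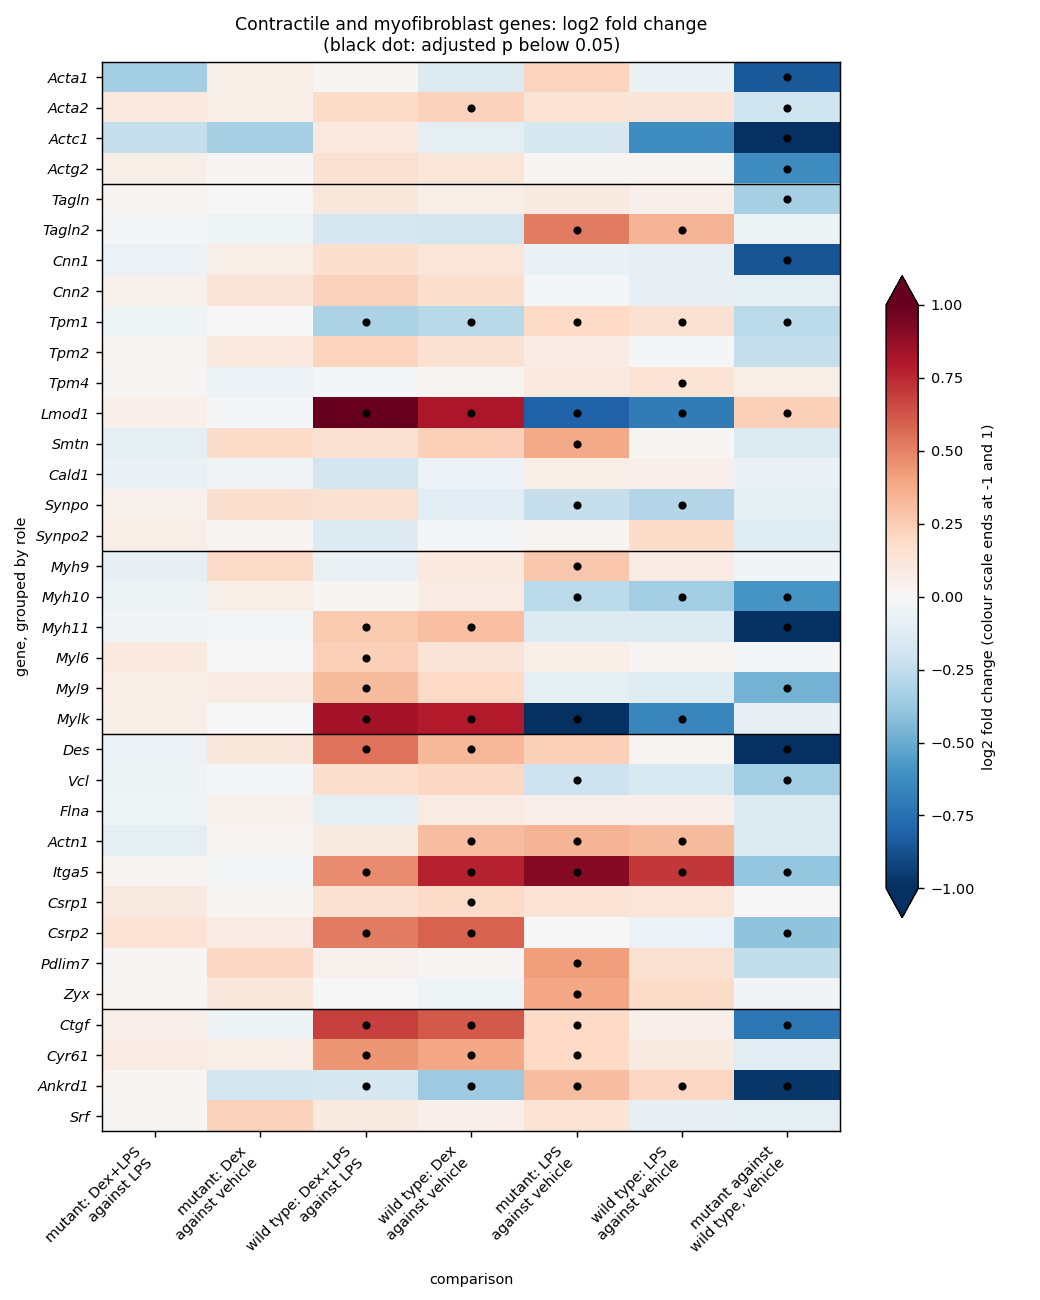
Log2 fold changes (colour) of the 35 contractile and myofibroblast genes, in rows grouped by role, in 7 comparisons, in columns, with a black dot where the adjusted p was below 0.05. The mutant Dex columns hold no dot, the wild-type Dex columns hold 12 under LPS and 13 without, and the genotype column on the right holds 17, of which 16 mark lower levels in mutant cells.

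Dex raised a subset of the contractile genes in wild-type cells. Of the 35 genes, 11 rose and 2 fell with Dex against vehicle, while 7.92% of all genes tested rose and 5.24% fell (edgeR, adjusted p below 0.05). The median log2 fold change was 0.12 over the 35 genes and 0.00 over all genes. By role, 5 of 9 adhesion, crosslink and filament genes rose, 2 of 6 myosin genes, 2 of 4 SRF and matricellular genes, 1 of 12 thin filament genes and 1 of 4 muscle actins. In bulk RNA, fewer cells of a type and less RNA per cell cannot be told apart. Of 10 smooth muscle and pericyte markers, 9 were tested, of which 4 rose and 2 fell with Dex, and their summed level was 410, 418 and 405 CPM with Dex and 426, 438 and 439 CPM with vehicle.

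The largest rise was that of Lmod1, leiomodin 1, which starts actin filaments in smooth muscle. Lmod1 had 124, 129 and 126 CPM with Dex, against 69.2, 74.4 and 72.3 CPM with vehicle, a log2 fold change of 0.81 (SE 0.07, adjusted p = 7.79e-09). Mylk, the kinase of the regulatory myosin light chain, had 76, 68.6 and 70.6 CPM with Dex, against 40.6, 43.1 and 40.6 CPM with vehicle (log2 0.79, SE 0.06, adjusted p = 2.23e-09). In both genes every Dex library lay far above every vehicle library. Itga5, the alpha 5 chain of the fibronectin receptor, had 1320, 1360 and 1330 CPM with Dex, against 752, 808 and 795 CPM with vehicle (log2 0.77, SE 0.04, adjusted p = 1.47e-11).

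The secreted matricellular proteins rose as well. Ctgf, connective tissue growth factor, had 1700, 1720 and 1750 CPM with Dex, against 1140, 1130 and 1120 CPM with vehicle (log2 0.61, SE 0.05, adjusted p = 1.56e-09). Cyr61, its close relative, had 773, 777 and 817 CPM with Dex, against 594, 606 and 603 CPM with vehicle (log2 0.39, SE 0.04, adjusted p = 4.46e-07). Both lie among the best known targets of YAP and TAZ. Another known target of YAP, the gene of the ankyrin repeat protein Ankrd1, went the other way, with 66.2, 67.1 and 70.5 CPM with Dex, against 88.7, 85.5 and 86.8 CPM with vehicle (log2 -0.36, SE 0.05, adjusted p = 1.24e-05). Srf itself did not pass the test, with 82.1, 79.7 and 79 CPM with Dex and 75.5, 78.8 and 78.8 CPM with vehicle.

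Csrp2 and Des rose too, and Tpm1 fell. Csrp2, a LIM-domain protein of smooth muscle, had 106, 106 and 101 CPM with Dex, against 70.3, 68.9 and 69 CPM with vehicle (log2 0.59, SE 0.10, adjusted p = 0.000193). Des had 73.3, 75.1 and 66.3 CPM with Dex, against 50.8, 59.3 and 60.6 CPM with vehicle (log2 0.33, SE 0.09, adjusted p = 0.0207). The Dex and vehicle libraries did not overlap in either gene, by a wide gap for Csrp2 and a narrower one for Des. Actn1, the actin crosslinker alpha-actinin 1, rose by log2 0.31 and Myh11 by 0.30. Tpm1 fell, with 2470, 2510 and 2470 CPM with Dex, against 2990, 3050 and 2990 CPM with vehicle (log2 -0.28, SE 0.05, adjusted p = 0.000119).

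Of the genes that most often define a myofibroblast, Acta2 rose and Tagln did not pass the test. Acta2 had 5220, 5270 and 5160 CPM with Dex, against 4410, 4530 and 4440 CPM with vehicle, with no overlap and a log2 fold change of 0.23 (SE 0.07, adjusted p = 0.0259). Tagln had 2360, 2430 and 2360 CPM with Dex and 2230, 2340 and 2310 CPM with vehicle, and Cnn1, which did not pass either, had 288, 298 and 283 CPM with Dex and 252, 274 and 272 CPM with vehicle. The 22 genes that did not pass, these among them, had log2 fold changes of -0.18 to 0.24. The calls of Acta2 and of the LIM-domain gene Csrp1 (log2 0.19) were lost when any 1 of the 6 libraries compared was left out, at adjusted p = 0.0564 to 0.0859 for Acta2 and 0.064 to 0.129 for Csrp1, and that of Des without vehicle replicate 1 or Dex replicate 1 or 2, at 0.0762 to 0.139. With only the 6 libraries compared in the fit, 27 genes passed in place of 13, and without the 5 libraries that stood apart, none of which belongs to these groups, 26 passed. Over all genes these counts were 4697 and 4331 in place of 2003. In the authors' deposited table for this comparison, 11 of 34 genes were higher and 3 lower at an adjusted p below 0.05, and all 13 calls made here were among them.

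**Figure D2:**
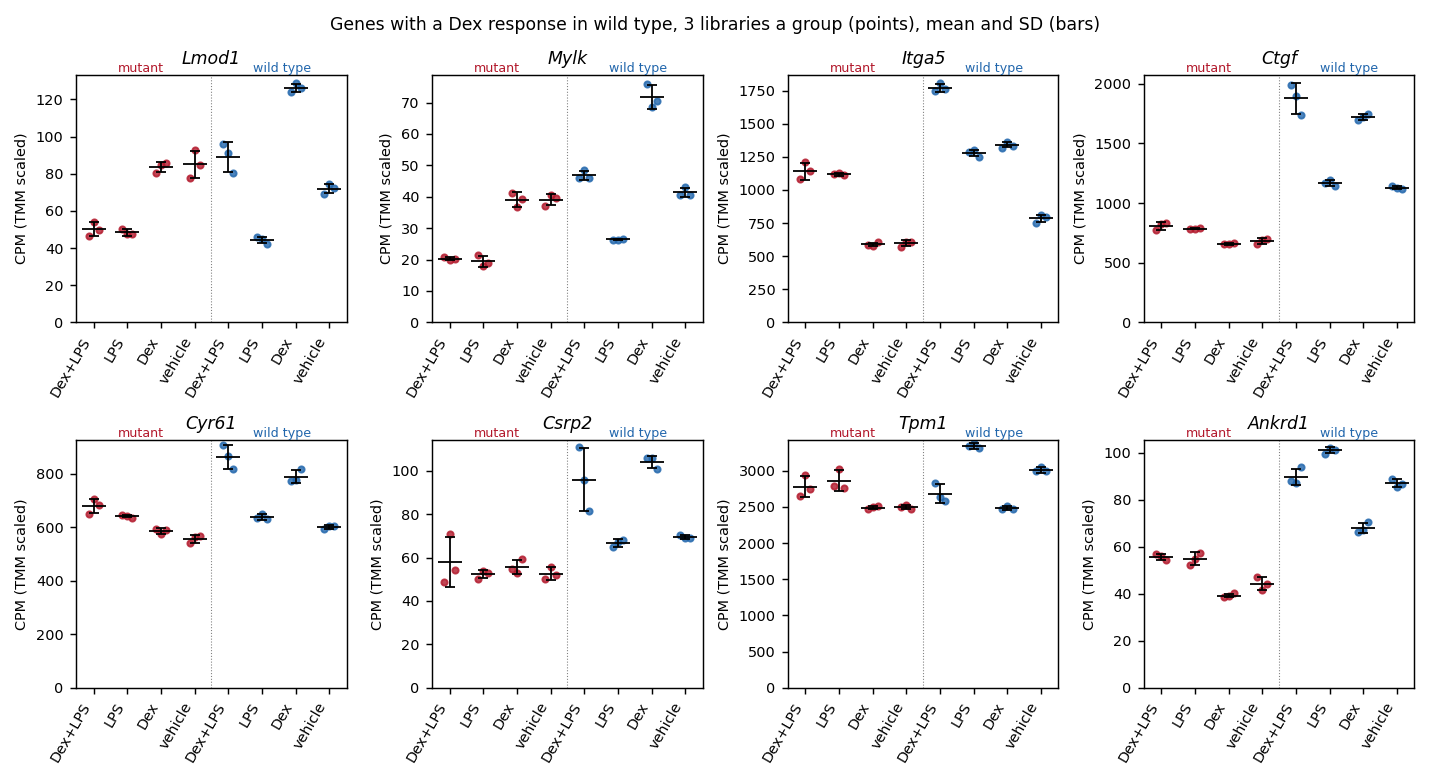
Levels in CPM (y axis, linear, from 0) of 8 genes in the 8 groups, with mutant groups left of wild-type groups; points are the 3 libraries of a group and bars are mean and SD. Wild-type Dex points of Lmod1, Mylk, Itga5, Ctgf, Cyr61 and Csrp2 lie above and those of Tpm1 and Ankrd1 below the wild-type vehicle points, while mutant Dex and vehicle points overlap except for Cyr61, slightly higher with Dex, and Ankrd1, slightly lower, neither of which passed the test.

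In mutant cells none of the 35 genes passed the test with Dex against vehicle, and neither did any other gene (0.0% of all genes). Beside that count of 0 by edgeR, 2 of the 35 genes and 1109 of all genes had an unadjusted p below 0.05. The smallest adjusted p of a contractile gene was 0.675, and DESeq2 called 0 of the 35 and 3 of all genes. Lmod1 had 80.4, 84.8 and 85.7 CPM with Dex and 77.6, 92.5 and 84.8 CPM with vehicle, with a log2 fold change of -0.02 (SE 0.07). Mylk had 41.3, 36.6 and 39.3 CPM with Dex and 37.2, 40.7 and 39.5 CPM with vehicle. The groups overlapped in both genes, as they did in 31 of the 35 and in 86.6% of all genes tested. The log2 fold changes of all 35 genes ran between -0.33 and 0.23.

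The difference in the Dex effect between mutant and wild-type cells was tested in the same fit. It was called for 8 of the 35 genes, 1 higher and 7 lower in mutant cells, against 2.6% and 4.4% of all genes. The difference in log2 fold change was -0.83 for Lmod1 (SE 0.10, adjusted p = 2.7e-06), -0.79 for Mylk (SE 0.09, adjusted p = 1.32e-06), -0.79 for Itga5 (SE 0.06, adjusted p = 8.68e-09) and -0.66 for Ctgf (SE 0.07, adjusted p = 2.47e-07). It was -0.51 for Csrp2, -0.32 for Cyr61 and -0.28 for Actn1, and 0.28 for Tpm1, which fell with Dex in wild-type cells. For these 8 genes the effect in mutant cells lay between -0.05 (Ctgf) and 0.08 (Csrp2) on the log2 scale. For Des, Myh11, Acta2, Csrp1 and Ankrd1, which passed in wild-type cells and not in mutant cells, the difference itself was not called. Those of Csrp2 and Actn1 were lost in most fits that left out 1 of the 12 libraries, at adjusted p = 0.055 to 0.0869 and 0.0508 to 0.067. The count was 13 with only the 4 groups compared in the fit and 21 without the 5 libraries that stood apart. Over all genes these counts were 1634 and 2208 in place of 1064.

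**Figure D3:**
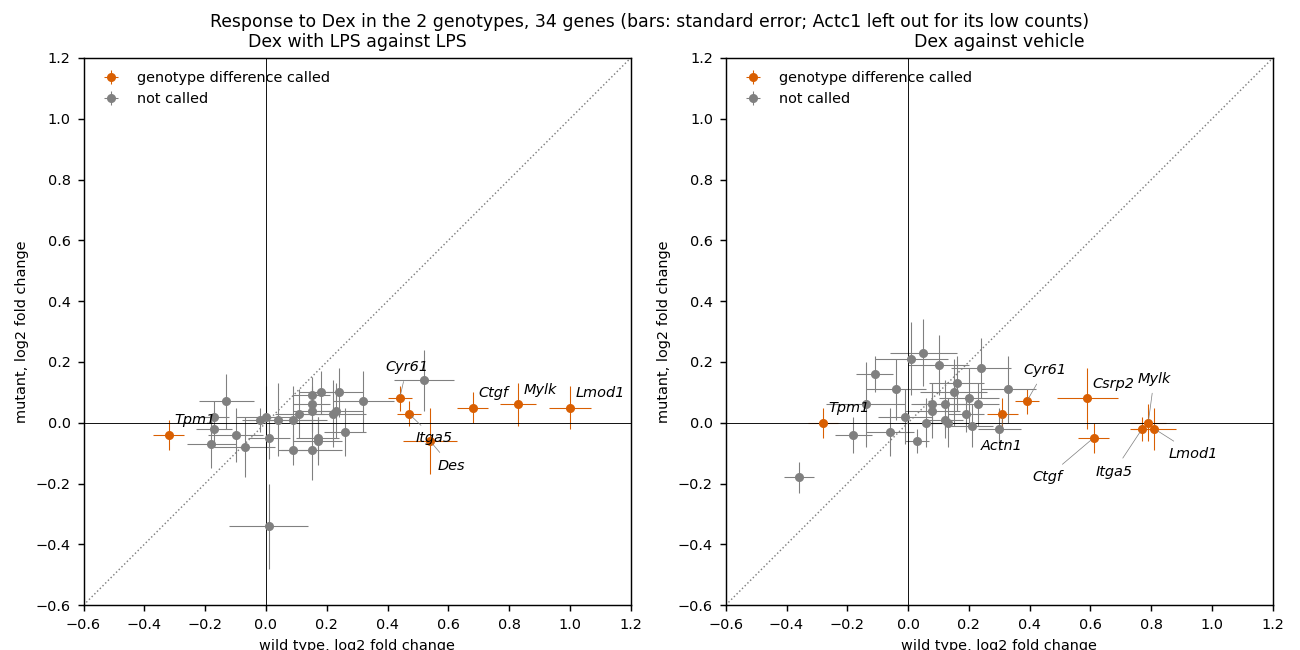
Log2 fold change with Dex in mutant cells (y axis) against that in wild-type cells (x axis), with LPS on the left and without on the right, for 34 genes with standard errors as bars; Actc1 is left out for its low counts. Genes with a called genotype difference (orange) lie along the horizontal line of no effect in mutant cells, out to 1.00 for Lmod1 under LPS in wild-type cells, and the dotted diagonal marks equal effects.

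The surrounding pathways were described by 5 lists of other genes. Of 20 SRF cofactors and further SRF targets, 5 rose and 4 fell with Dex in wild-type cells. For this list and the lists below, the shares over all genes were 7.92% that rose and 5.24% that fell. The rise of Myocd, the muscle cofactor myocardin, was the largest in the list. Myocd had 16.5, 14.7 and 15.6 CPM with Dex, against 1.61, 2.4 and 1.9 CPM with vehicle in wild-type cells (log2 2.98, SE 0.20, adjusted p = 1.36e-10). In mutant cells it had 1.05, 1.05 and 1.33 CPM with Dex and 1.25, 1.76 and 1.56 CPM with vehicle, and the genotype difference was -3.34 (SE 0.32, adjusted p = 1.52e-07). Mkl1, which encodes the cofactor MRTF-A, rose by log2 0.38 in wild-type cells (SE 0.10, adjusted p = 0.0125), but its genotype difference of -0.24 was not called (adjusted p = 0.458). The immediate early factors Egr3 and Egr2, SRF targets on its growth factor branch, fell by log2 -1.46 and -0.71.

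Of 20 genes of the YAP, TAZ and TEAD pathway, 6 rose and 2 fell with Dex in wild-type cells. Tead4, a DNA-binding partner of YAP, had 19.4, 20.2 and 21.8 CPM with Dex, against 7.64, 7.29 and 9.39 CPM with vehicle (log2 1.33, SE 0.10, adjusted p = 1.06e-09), and its genotype difference was -1.35 (adjusted p = 8.27e-07). Among 24 integrin and focal adhesion genes 7 rose and 3 fell. Lims2, a LIM-domain partner of integrin-linked kinase, had 26.4, 24.4 and 27 CPM with Dex, against 5.46, 5.89 and 6.53 CPM with vehicle (log2 2.12), and Itga8, the alpha 8 integrin of smooth muscle and myofibroblasts, rose by log2 0.95, while Itgb3, the beta 3 integrin chain, fell by log2 -0.91.

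TGF-beta, the chief inducer of myofibroblasts, showed no single direction among the 21 genes of its list, of which 3 rose and 2 fell with Dex in wild-type cells. Tgfbr3, the co-receptor betaglycan, rose by log2 1.18 and Smad3, a signal transducer of TGF-beta, fell by log2 -0.60, with 61.8, 63 and 63.6 CPM with Dex, against 94.2, 97.4 and 93.2 CPM with vehicle. Of 17 myofibroblast matrix genes, 3 rose and 5 fell, with rises of the matricellular gene Postn (log2 0.95) and the collagen crosslinking enzyme gene Lox (log2 0.65) and falls of Ccn4 (log2 -0.70) and of the elastin gene Eln (log2 -0.41). In mutant cells 0 genes of these 5 lists passed with Dex, either alone or with LPS; by edgeR 0 of all genes passed with Dex alone.

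**Figure D4:**
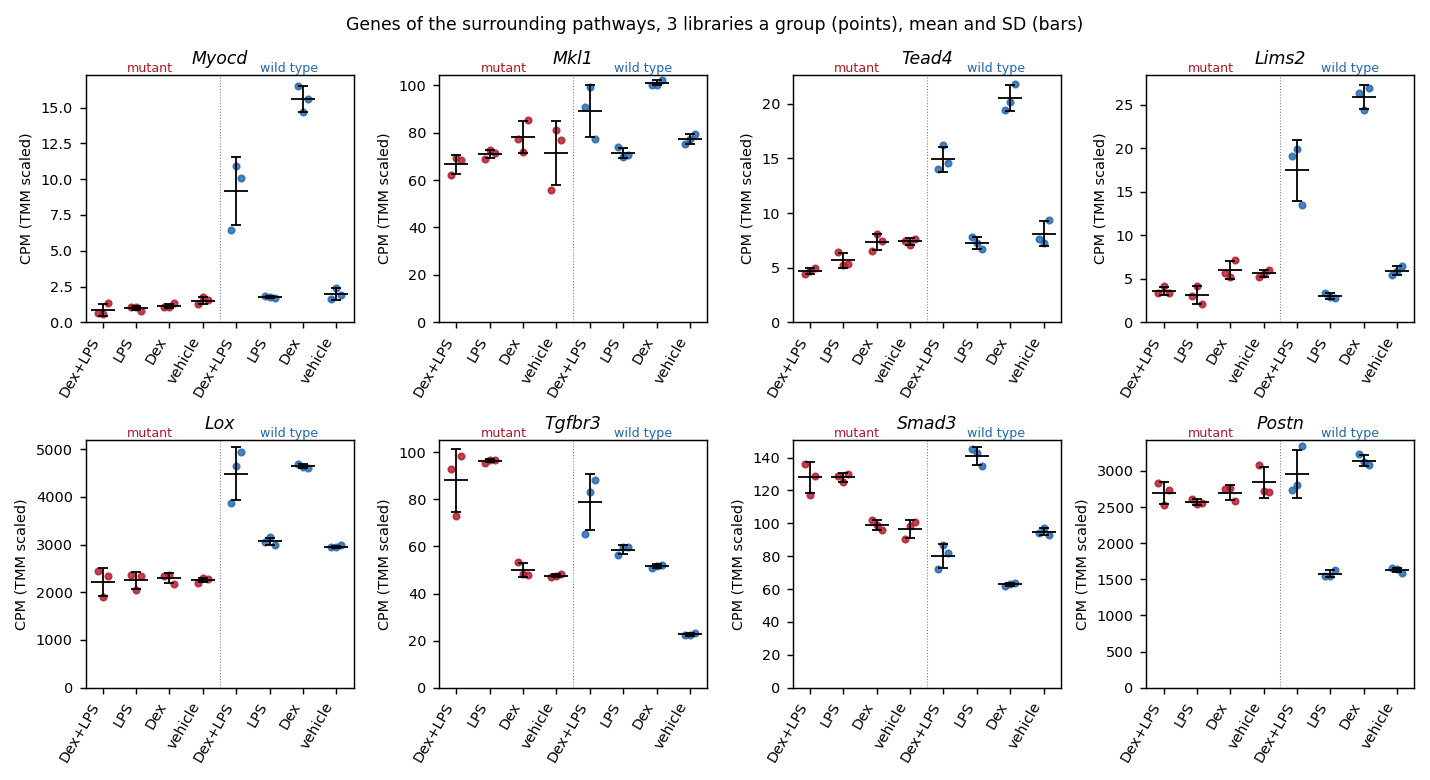
Levels in CPM (y axis, linear, from 0) of 8 genes of the surrounding pathways in the 8 groups, with mutant groups left of wild-type groups; points are libraries and bars are mean and SD, n = 3. Myocd, Tead4 and Lims2 stand high in the wild-type Dex group, with 15.6 CPM on average for Myocd, while mutant Dex points of these 3 lie beside the mutant vehicle points.

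LPS moved contractile genes in both directions and in both genotypes. In mutant cells 11 of 35 rose and 5 fell with LPS against vehicle, beside 19.0% and 17.7% of all genes, and in wild-type cells 6 rose and 4 fell, beside 26.4% of all genes that passed in either direction, of which those that fell made up 12.4% of all genes. These shares of all genes are large, and the median log2 fold change of the 35 genes was 0.09 in mutant and 0.03 in wild-type cells. The 2 comparisons used separate libraries and shared 9 called genes, 56.2% of the 16 in mutant and 90.0% of the 10 in wild-type cells, all in the same direction. Calls shared over all genes were not counted. The difference between genotypes was called for none of the 35 by edgeR, beside 0.539% of all genes. At an unadjusted p below 0.05 it was 4 of 35 and 1337 of all 15221 genes, the smallest adjusted p was 0.0842, DESeq2 called 2, and edgeR called 1 without mutant LPS replicate 1. In wild-type cells the count with LPS was 25 in place of 10 with only the 6 libraries compared in the fit, and 20 without the 5 libraries that stood apart. Over all genes these counts were 6983 and 6655 in place of 4020.

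Mylk and Lmod1 fell with LPS, the opposite direction to their response to Dex; the comparisons of LPS and of Dex with vehicle share the vehicle libraries. Mylk had 21.4, 17.9 and 18.8 CPM with LPS, against 37.2, 40.7 and 39.5 CPM with vehicle in mutant cells (log2 -1.01, SE 0.06, adjusted p = 1.61e-11). In wild-type cells Mylk had 26.2, 26.3 and 26.6 CPM with LPS, against 40.6, 43.1 and 40.6 CPM with vehicle (log2 -0.65, SE 0.06, adjusted p = 4.44e-08). The genotype difference in Mylk was -0.36 (SE 0.09) and was not called by edgeR. Lmod1 had 50.4, 47.3 and 47.4 CPM with LPS, against 77.6, 92.5 and 84.8 CPM with vehicle in mutant cells (log2 -0.81), and fell by log2 -0.70 in wild-type cells. Myh10, the heavy chain of nonmuscle myosin IIB, and Synpo, the actin binder synaptopodin, fell in both genotypes as well.

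Itga5 rose most with LPS. It had 1120, 1130 and 1110 CPM with LPS, against 570, 611 and 610 CPM with vehicle in mutant cells (log2 0.91, SE 0.04, adjusted p = 1.64e-13), and 1290, 1300 and 1250 CPM with LPS, against 752, 808 and 795 CPM with vehicle in wild-type cells (log2 0.71, SE 0.04, adjusted p = 2.09e-11). In both genotypes every LPS library lay above every vehicle library. Tagln2, a transgelin found in many cell types, had 957, 1050 and 948 CPM with LPS, against 675, 705 and 678 CPM with vehicle in mutant cells (log2 0.52), and rose by log2 0.34 in wild-type cells. Actn1, Ankrd1 and Tpm1 also rose in both genotypes, by log2 0.20 to 0.34 in mutant and 0.15 to 0.32 in wild-type cells. The wild-type call of Tpm1 was lost without vehicle replicate 1 or 3 or LPS replicate 2, at adjusted p = 0.0515 to 0.0572.

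In mutant cells alone, calls with LPS were made for the adhesion proteins Zyx (log2 0.39) and Pdlim7 (0.42), for Smtn (0.38), Myh9 (0.27), Ctgf (0.20) and Cyr61 (0.20), and for Vcl, the adhesion protein vinculin (-0.21). The genotype difference was called for none of them. Several values moved without the deep mutant vehicle library, replicate 1. The calls of Myh9, Pdlim7 and Vcl were lost and that of Smtn was kept: Myh9 had a log2 fold change of 0.13 (adjusted p = 0.21), Pdlim7 of 0.29 (adjusted p = 0.0684), Vcl of -0.20 (adjusted p = 0.0628) and Smtn of 0.25 (adjusted p = 0.0385). Without the 5 libraries that stood apart, values were 0.23 for Zyx, 0.25 for Pdlim7, 0.17 for Smtn and 0.12 for Myh9. The calls of Vcl and Myh9 were also lost without LPS replicate 1 or 2, and that of Myh9 without LPS replicate 3.

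With LPS present, Dex moved much the same contractile genes in wild-type cells. Dex with LPS against LPS raised 10 of the 35 genes and lowered 2, beside 10.5% and 10.6% of all genes, and the median log2 fold change was 0.15 over the 35 genes and 0.01 over all genes. This comparison shares no library with that of Dex and vehicle. The 2 shared 10 called genes, 83.3% of the 12 under LPS and 76.9% of the 13 without, all in the same direction. Shared calls were not counted over all genes, so this overlap is not shown to be particular to the contractile genes.

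Lmod1 had 96.1, 90.9 and 80.2 CPM with Dex and LPS, against 45.8, 44.9 and 42.2 CPM with LPS alone (log2 1.00, SE 0.07, adjusted p = 2.7e-10). Mylk had 45.9, 48.4 and 46.1 CPM with Dex and LPS, against 26.2, 26.3 and 26.6 CPM with LPS alone (log2 0.83, SE 0.06, adjusted p = 1.32e-09). The levels of both with Dex and LPS were thus above those of wild-type cells with vehicle in every library. Ctgf had 1990, 1900 and 1740 CPM with Dex and LPS, against 1170, 1190 and 1140 CPM with LPS alone (log2 0.68), and Cyr61 rose by log2 0.44. Des had 98.5, 84.1 and 72.4 CPM with Dex and LPS, against 60.8, 56.1 and 57.7 CPM with LPS alone (log2 0.54, SE 0.09, adjusted p = 0.00016), its 3 treated libraries spread widely but all above LPS alone. Tpm1 and Ankrd1 fell again, by log2 -0.32 and -0.17.

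Some calls in this comparison were lost when 1 library was left out. The rises of the myosin light chains Myl9 (log2 0.32) and Myl6 (0.24) came with 633 and 937 CPM in Dex and LPS replicate 1, above the other libraries of both groups, and without that library they were 0.18 (adjusted p = 0.143) and 0.10 (adjusted p = 0.319). Without all 5 libraries that stood apart, which left 1 library with Dex and LPS, Myl6 had 0.15. The calls of Myl9 and Myl6 were also lost without LPS replicate 1 or 2, and that of Myl6 without LPS replicate 3. That of Ankrd1 was lost without LPS replicate 2 or Dex and LPS replicate 2, at adjusted p = 0.0527 and 0.0564. With only the groups compared in the fit, 8 genes passed in place of 12, and 1501 in place of 3198 over all genes. The calls of Myl9, Myl6, Myh11 and Ankrd1 were lost in that fit, at adjusted p = 0.0551 to 0.198. Without the deep library, Dex and LPS replicate 3, the count was 19 in place of 12. The count over all genes moved with it, to 4481 in place of 3198. In the authors' deposited table for this comparison, 13 of 34 genes were higher and 3 lower, and all 12 calls made here were among them.

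In mutant cells none of the 35 genes passed with Dex and LPS against LPS, beside 0.00657% of all genes, which is 1 gene. At an unadjusted p below 0.05 it was 1 of 35 and 889 of all genes, and DESeq2 called 0 of the 35. Over all genes DESeq2 called 31, edgeR with the replicate number as a block 12, and edgeR without the 5 libraries that stood apart 164. Lmod1 had 46.4, 54.1 and 49.7 CPM with Dex and LPS and 50.4, 47.3 and 47.4 CPM with LPS alone. Mylk had 20.7, 19.8 and 20.2 CPM with Dex and LPS and 21.4, 17.9 and 18.8 CPM with LPS alone. The groups overlapped in both. The genotype difference of this effect was called for 7 genes, 1 higher and 6 lower in mutant cells, beside 5.36% and 5.03% of all genes. It was -0.96 for Lmod1 (SE 0.10, adjusted p = 3.57e-07), -0.76 for Mylk, -0.64 for Ctgf, -0.60 for Des, -0.44 for Itga5 and -0.35 for Cyr61, and 0.27 for Tpm1.

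The difference with Dex and LPS and the difference with Dex alone shared 6 called genes (Ctgf, Cyr61, Itga5, Lmod1, Mylk and Tpm1), 85.7% of the 7 under LPS and 75.0% of the 8 without, all in the same direction. Here too, calls shared over all genes were not counted. Without the 3 deeper libraries the count under LPS was 12, and 1777 in place of 1581 over all genes. With only the groups compared in the fit it was 6, and 1039 over all genes. The call of Tpm1 was lost in that fit (adjusted p = 0.0696). Without the 5 libraries that stood apart, 1 library remained in wild type with both agents, so no conclusion is drawn from the count in that fit. Myocd again rose in wild-type cells, with 6.45, 10.9 and 10.1 CPM with Dex and LPS, against 1.83, 1.79 and 1.69 CPM with LPS alone (log2 2.37, SE 0.20, adjusted p = 6.92e-09), and the genotype difference was -2.60 (adjusted p = 1.62e-05). In mutant cells Myocd had 0.666, 0.577 and 1.33 CPM with Dex and LPS and 1.05, 1.09 and 0.829 CPM with LPS alone.

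Whether LPS changed the effect of Dex was tested in wild-type cells as the effect under LPS minus the effect without it. Of the 35 genes 1 was called, beside 1.56% of all genes. This was Itga5, at -0.30 (SE 0.06, adjusted p = 0.0102), since its log2 fold change with Dex was 0.47 under LPS and 0.77 without. Its level was highest of all 8 groups with both agents, at 1750, 1810 and 1760 CPM. The other 34 genes had differences of -0.22 to 0.26, and the call of Itga5 was lost when genes of low counts were kept (-0.29, adjusted p = 0.0824). Without Dex and LPS replicate 2 the count was 2.

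Between genotypes, before any treatment, contractile genes that differed were lower in mutant cells, with 1 exception. In mutant against wild-type cells with vehicle, 16 of the 35 genes were lower and 1 was higher, beside 10.1% and 8.69% of all genes, with a median log2 fold change of -0.20 over the 35 genes and -0.01 over all genes. The muscle actins Acta1, Acta2 and Actg2 were lower, as were 3 of 12 thin filament genes, 3 of 6 myosin genes, 4 of 9 adhesion, crosslink and filament genes and 2 of 4 SRF and matricellular genes. The other gene lower was Actc1, which never passed 0.229 CPM in a mutant library and reached the filter on low counts through wild-type libraries, so its call is given as a description. The mutant vehicle libraries serve also in the mutant Dex and LPS comparisons. Embryo, culture and genotype cannot be told apart here.

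Des, desmin, showed the largest difference among the genes with more than a few reads. It had 12.2, 14.9 and 13.2 CPM in mutant cells, against 50.8, 59.3 and 60.6 CPM in wild-type cells (log2 -2.10, SE 0.10, adjusted p = 1.45e-12). Actc1 had 0.229, 0.0951 and 0.169 CPM in mutant cells, from 13, 2 and 4 reads, against 1.19, 0.699 and 0.703 CPM in wild-type cells, from 25, 16 and 17 reads (log2 -2.21, SE 0.43, adjusted p = 0.000585). Reads this few make its fold change imprecise. Myh11 had 15.9, 17.7 and 17.9 CPM in mutant cells, against 33.5, 32.3 and 36 CPM in wild-type cells (log2 -0.99, SE 0.07, adjusted p = 5.63e-10). Cnn1 had 138, 154 and 148 CPM in mutant cells, against 252, 274 and 272 CPM in wild-type cells (log2 -0.86, SE 0.08, adjusted p = 5.95e-08).

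Acta1, skeletal muscle actin, differed by log2 -0.84 and Actg2, the smooth muscle gamma actin, by -0.62. Tagln had 1740, 1900 and 1830 CPM in mutant cells, against 2230, 2340 and 2310 CPM in wild-type cells (log2 -0.33, SE 0.08, adjusted p = 0.004). Acta2 had 3660, 4140 and 3870 CPM in mutant cells, against 4410, 4530 and 4440 CPM in wild-type cells (log2 -0.20, SE 0.07, adjusted p = 0.0438). Acta2 and Tagln, the genes with the highest level per kilobase, thus had smaller log2 differences than Des, Myh11 and Cnn1, and the call of Acta2 was lost without any 1 of 5 of the 6 libraries compared, at adjusted p = 0.0824 to 0.184, the exception being mutant replicate 2. Outside the filaments, Ankrd1 had 46.9, 41.5 and 44.2 CPM in mutant cells, against 88.7, 85.5 and 86.8 CPM in wild-type cells (log2 -0.97, SE 0.05, adjusted p = 2.46e-12), and Ctgf differed by log2 -0.72. Myh10, Myl9, Csrp2, Itga5, Vcl and Tpm1 were lower by log2 -0.59 to -0.27.

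Lmod1 alone was higher in mutant cells, with 77.6, 92.5 and 84.8 CPM, against 69.2, 74.4 and 72.3 CPM in wild-type cells (log2 0.24, SE 0.07, adjusted p = 0.0166), and this call was lost without mutant replicate 2 (adjusted p = 0.11) or wild-type replicate 1 (adjusted p = 0.0794). The log2 fold changes of the 18 genes not called ran between -0.25 and 0.06. Srf had 58.7, 80.8 and 79.5 CPM in mutant cells and 75.5, 78.8 and 78.8 CPM in wild-type cells, with the deep mutant replicate 1 low and the other 2 beside the wild type. Among the pathway lists, 0 genes rose and 3 fell of 20 SRF cofactors and targets, 0 rose and 6 fell of 20 YAP and TEAD genes, 2 rose and 6 fell of 21 TGF-beta genes and 1 rose and 7 fell of 24 integrin and focal adhesion genes. The matrix list went both ways, with 5 of 17 higher and 4 lower. Beside these lists, 8.69% of all genes were higher and 10.1% lower. Wisp2, a matricellular relative of Ctgf, had 125, 147 and 141 CPM in mutant cells, against 19.8, 17.9 and 19.5 CPM in wild-type cells (log2 2.85, SE 0.09, adjusted p = 1.14e-15).

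Markers of other cell types differed between the genotypes in vehicle as well, and their part in the results was not tested. Summed levels of 10 smooth muscle and pericyte markers were 307, 365 and 369 CPM in mutant cells, against 426, 438 and 439 CPM in wild-type cells, with Pln below 1 CPM throughout. Those of 14 skeletal muscle markers were 4.24 to 4.52 CPM in mutant cells, against 6.53 to 7.29 CPM in wild-type cells; 11 of the 14 stayed below 1 CPM in every library, and Myod1, Myf5, Pax7 and Ckm never passed 0.127 CPM. Heart muscle markers summed to 12.1 to 12.7 CPM in mutant and 10.4 to 11.6 CPM in wild-type cells, with Myh6, Myh7, Myl7, Nppa and Nkx2-5 below 1 CPM throughout. Leukocyte markers summed to 205 to 215 CPM in mutant and 91.3 to 93.6 CPM in wild-type cells, and endothelial markers to 17.8 to 18.5 CPM in mutant and 33.0 to 34.3 CPM in wild-type cells. Epithelial markers summed to 18.3 to 22.6 CPM in mutant and 40.1 to 43.0 CPM in wild-type cells, and cartilage and bone markers to 114 to 141 CPM in mutant and 303 to 328 CPM in wild-type cells. Markers of adult liver summed to 209, 29.3 and 33.2 CPM in mutant cells and 84, 85.2 and 180 CPM in wild-type cells. Over all libraries the liver sum ran from 0.944 to 233 CPM, and the 3 deeper libraries held 233, 209 and 143 CPM. In wild-type cells it was 29.1 to 32.1 CPM with Dex and 84 to 180 CPM with vehicle. The 10 fibroblast markers, at 17700 to 28700 CPM summed in every library, stood far above all of these. Sums follow the most abundant genes. Called higher and lower in mutant cells with vehicle were 6 and 0 of 10 fibroblast markers. For leukocytes they were 10 and 0 of 10. They were 1 and 4 of 9 tested for smooth muscle and 0 and 2 of 6 for skeletal muscle. For heart muscle they were 1 and 2 of 5, and for cartilage and bone 2 and 1 of 8. For endothelium they were 0 and 2 of 5, for epithelium 0 and 3 of 4 and for liver 0 and 0 of 12. Of all genes, 8.69% were higher and 10.1% lower.

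**Figure D5:**
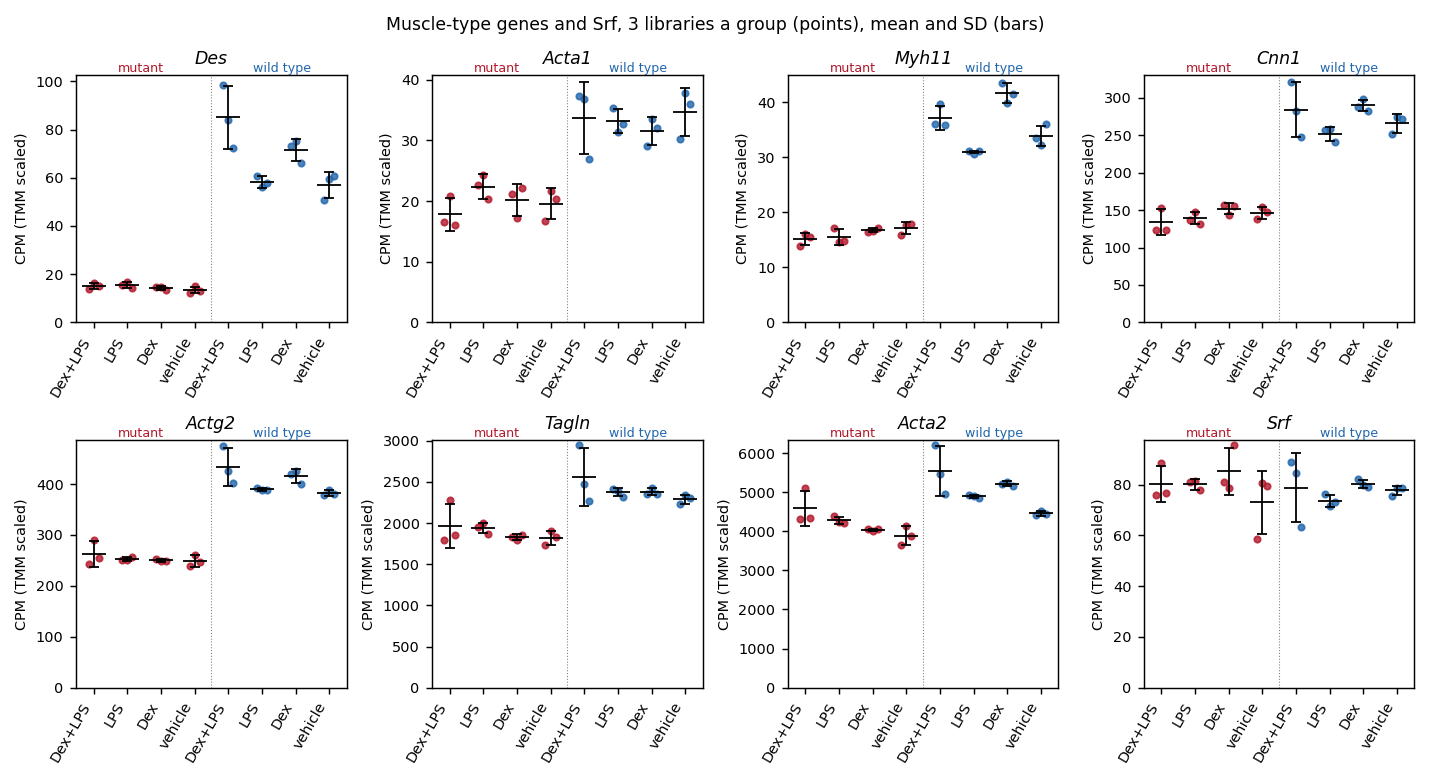
Levels in CPM (y axis, linear, from 0) of 7 muscle-type genes and Srf in the 8 groups, with mutant groups left of wild-type groups; points are libraries and bars are mean and SD, n = 3. Every mutant library of Des, Acta1, Myh11, Cnn1 and Actg2 lies below every wild-type library, and Tagln and Acta2 overlap once the treated groups are included. The Srf libraries of the genotypes overlap, with mutant vehicle replicate 1 below the other vehicle libraries.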

How the data were processed

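RNA-seq of 24 libraries of mouse embryonic fibroblasts was used, 3 in each of 8 groups of genotype and treatment. The libraries were made with a stranded mRNA kit from 500 ng RNA, per the labels' protocols. The deposited read counts per gene were made by the authors with STAR (2.4.2 and 2.4.2a), on build mm10, per the submitters' processing notes; the layout is that of STAR's gene counts, and the column for the strand that the kit reports was used. Reads of the opposite strand were 2.70 to 2.91%. Entries that name no gene, 12.4 to 15.7% of reads, stayed out of library sizes and tests. The authors' deposited tables also give log2 fold changes and adjusted p-values of 12588 genes in 4 comparisons, printed here only where named; 96 columns of values per sample in them were not used.

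Members and lists were chosen with earlier results of these data known. Counts were scaled by TMM and filtered by edgeR's filterByExpr over the groups (edgeR 4.0.16, R 4.3.3), which kept 15221 of the 27088 genes with a read. All libraries entered 1 robust quasi-likelihood fit with 1 coefficient per group. There were 11 comparisons, with Benjamini-Hochberg adjustment over all genes tested in each and a threshold of 0.05; every adjusted p is from this fit unless another source is named. No p was adjusted over the members alone. One pathway list is not reported here. CPM used library sizes after TMM. The standard error is the absolute log2 fold change divided by the square root of F. A count of 0 allows up to 3 reads, or 0.0518 to 0.159 CPM, for counting error only. Gene positions and exon lengths came from GENCODE vM21 on GRCm38. Strand told overlapping antisense genes apart. Genes given with values in every sample were the members with the largest called changes and those that define the label; up to 4 called genes with the largest change were named per list, and Mkl1, Smad3, Srf and genes named for a lost or opposite call were added after their values were seen. Alternatives were DESeq2 1.42.0, DESeq2-type size factors in edgeR, no filter, unstranded counts, only the groups compared, the replicate number as a block, and fits without libraries. A fit of only the groups compared that also left out the 5 libraries standing apart was chosen after seeing the data.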

Additional observations from a re-analysis of the deposited data

Results flagged for a closer look

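The effect of Dex differed between the genotypes by the test of the difference for 8 contractile genes without LPS and 7 with LPS. Mutant minus wild type, the difference in log2 fold change without LPS was -0.83 for Lmod1, -0.79 for Mylk, -0.79 for Itga5, -0.66 for Ctgf, -0.51 for Csrp2, -0.32 for Cyr61, -0.28 for Actn1 and 0.28 for Tpm1. With LPS in both arms it was -0.96 for Lmod1, -0.76 for Mylk, -0.64 for Ctgf, -0.60 for Des, -0.44 for Itga5, -0.35 for Cyr61 and 0.27 for Tpm1.

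The effect of Dex in wild-type cells also differed with the presence of LPS for Itga5, by -0.30 as the effect under LPS minus the effect without it.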

How the results depend on the processing

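The counts of called contractile genes moved most with the choice of libraries in the fit. With only the groups compared in the fit, 27 genes passed with Dex in wild-type cells, 13 in the genotype difference of the Dex effect and 25 with LPS in wild-type cells. Over all genes these counts were 4697, 1634 and 6983, in place of 2003, 1064 and 4020. The same setting gave 8 genes with Dex and LPS against LPS in wild-type cells, in place of 12. Over all genes that count was 1501 in place of 3198. Without the 5 libraries that stood apart, these counts were 26, 21 and 20, and it was 2 for the genotype difference of the LPS effect, 27 with Dex and LPS against LPS in wild-type cells, 24 for the genotype difference of that effect and 3 for the LPS difference of the Dex effect. With both choices together, chosen after seeing the data, the counts were 27, 18, 25, 2, 30, 28 and 4, and 1 gene passed with Dex and LPS against LPS in mutant cells. Both settings without the 5 libraries left 1 wild-type library with Dex and LPS. Their counts in comparisons that use that group have no measured spread behind that group, and no conclusion is drawn from them. Without the 3 deeper libraries, 22 passed with Dex and LPS against LPS in wild-type cells and 12 in its genotype difference. Over all genes these counts were 5050 and 1777, in place of 3198 and 1581. DESeq2 called 2 in the genotype difference of the LPS effect, beside 149 of all genes. Without the filter on low counts, 0 were called in the LPS difference of the Dex effect, and Itga5 had an adjusted p = 0.0824 there. Over all genes 175 were called, in place of 238. Leaving out 1 library in turn gave 0 to 1 for the genotype difference of the LPS effect, 9 to 19 for Dex and LPS against LPS in wild-type cells and 1 to 2 for the LPS difference of the Dex effect. Over all genes these ran from 36 to 82, from 2424 to 4481 and from 156 to 316. Dex in mutant cells gave 0 in each alternative run.

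Of 84 calls of a gene in a comparison, 7 were lost without the filter, 6 with only the groups compared, 3 with unstranded counts, 4 without the deeper libraries and none with DESeq2, other size factors or without the 5 libraries. A few values not called in the main fit changed sign without the 5 libraries or with both choices together. Myh9 in mutant against wild type with vehicle had 0.11 and 0.12 in these fits. It passed the test there, in the direction opposite to its sign in the main fit. With Dex and LPS against LPS in wild-type cells, Flna had 0.08 with both choices together. Myh9 there had 0.13 without the 5 libraries and 0.14 with both choices. These fits left too few wild-type libraries with Dex and LPS for a call to be given in that comparison. The cause was not tested.

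The labels do not state whether replicate numbers pair the samples. Over 84 pairs of libraries with the same number, the correlation of deviations from group means was -0.576 to 0.348. Its median was -0.000352, with 17 pairs over 0.1. Pairs with different numbers were not compared, so these values do not decide on pairing. With the replicate number as a block, all 84 calls were kept and the count with Dex and LPS against LPS in wild-type cells was 13 in place of 12. Depth limits Actc1, with 2 to 33 reads a library.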
